A study of Mus musculus with 6 samples.

Results

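The clustered protocadherin genes were examined in 4 lists of ChIP-seq peaks, which give the positions of the proteins ZFP57 and KAP1 in mouse embryonic stem cells (ESCs). The members were all genes of the GENCODE M1 annotation (mouse genome build mm9) on chromosome 18 whose symbols start with Pcdha, Pcdhb or Pcdhg. They were 25 of 37310 gene records, all on the plus strand, with 2 in the alpha array, 22 in the beta array and 1 in the gamma array. JB1 is an F1 hybrid ESC line whose maternal genome is JF1 and whose paternal genome is B6, and BJ1 comes from the reciprocal cross (maternal B6, paternal JF1). Both male lines were grown without feeders, in serum and LIF, with no other treatment. Each line was immunoprecipitated with an antibody to ZFP57 and an antibody to KAP1, giving 1 library per line and antibody. The 2 input libraries were not used here. Each cross is represented by a single cell line, so a difference between JB1 and BJ1 cannot be told apart from a difference between these libraries. No test between the lines was possible, and all counts below are descriptions without replicates.

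Clustered protocadherins are adhesion proteins of the neuronal surface, and the combination a neuron expresses gives it a molecular identity. Each array holds a tandem row of large, similar exons, every one with its own promoter. In the alpha and gamma arrays the chosen variable exon is spliced to shared constant exons, whereas each beta gene is a single large exon. Promoter choice in neurons involves CpG methylation, CTCF and cohesin. KAP1 (TRIM28) is a co-repressor that KRAB zinc finger proteins bring to DNA and that recruits the histone methyltransferase SETDB1. In ESCs it is best known for silencing endogenous retroviruses. ZFP57 is such a zinc finger protein, which binds the methylated hexamer TGCCGC at imprinting control regions.

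In mm9 the alpha array spanned chr18:37089939-37347311 (257 kb), the beta array chr18:37424652-37681073 (256 kb) and the gamma array chr18:37833989-38001527 (168 kb). The first and last members were *Pcdha11* and *Pcdha3* in the alpha array, *Pcdhb1* and *Pcdhb22* in the beta array and *Pcdhgc5* alone in the gamma array. GENCODE M1 gives the alpha and gamma isoforms it annotates mainly as transcripts of 1 gene record per array, so *Pcdha11* and *Pcdhgc5* each span their whole array. The symbols *Pcdhac1*, *Pcdhac2*, *Pcdhgc3* and *Pcdhgc4* have no record of their own in it. *Pcdhb20* is annotated as a pseudogene. A scan of the B6 reference for long open reading frames that resemble an annotated variable exon found 58 such exons, with 14 of alpha, 22 of beta and 22 of gamma type. Of the gamma exons, 2 (starting at 37821572 and 37828735) lay upstream of the annotated gamma array, within its 20 kb flank. The same numbers of gene names stand in RefSeq (GRCm38.p6), which was used for names alone. Of the 58 exons, 10 alpha, 22 beta and 9 gamma exons were annotated in GENCODE M1.

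The peaks over these arrays were mostly KAP1 peaks, and many of them lay on a pair of repeated elements rather than on protocadherin exons. Within the arrays and 20 kb on either side, the JB1 KAP1 list had 20 peaks and the BJ1 KAP1 list had 30. The JB1 ZFP57 list had 4 peaks there and the BJ1 ZFP57 list had 0. The 4 lists differ in size, with 10667 peaks for ZFP57 in JB1, 1318 for ZFP57 in BJ1, 38713 for KAP1 in JB1 and 72535 for KAP1 in BJ1. They hold positions only, on a 150 bp grid, so neither peak height nor sequencing depth is known, and the absence of a peak says only that the position passed no threshold in that list.

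**Figure D1:**
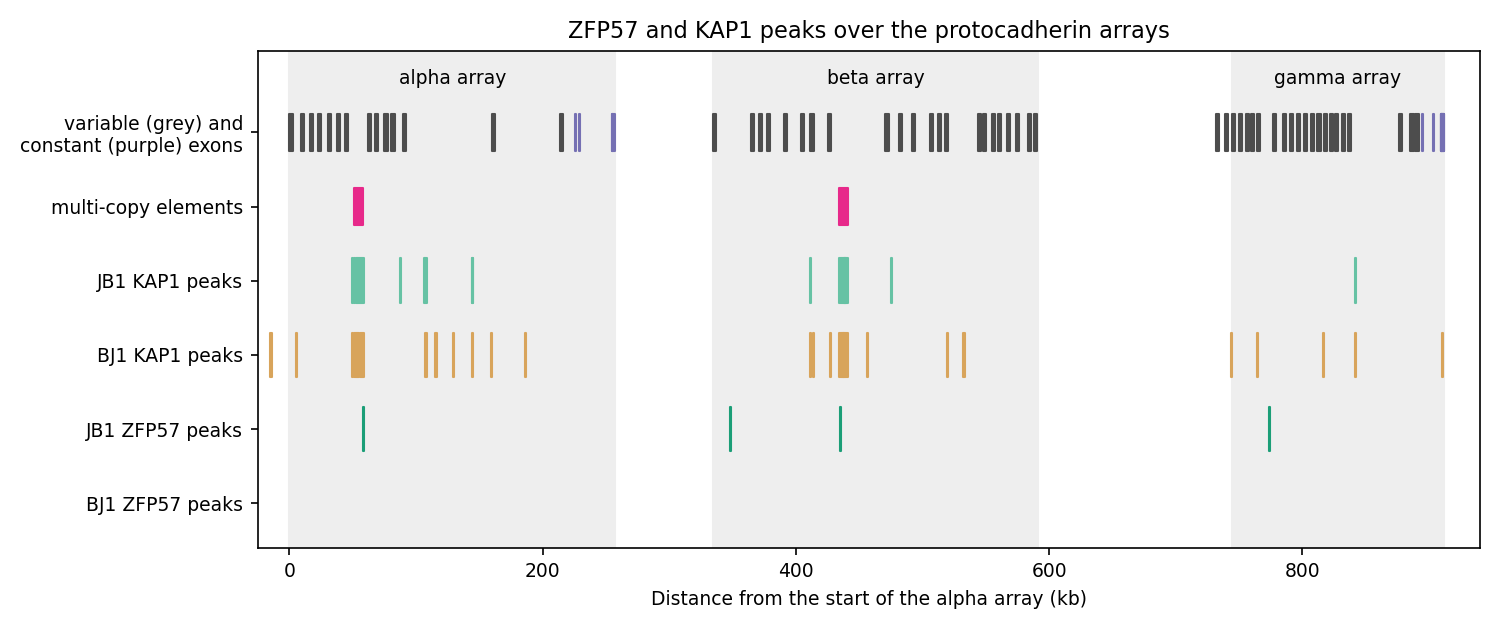
Peaks of the 4 lists over the alpha, beta and gamma arrays, by distance from the start of the alpha array (kb). The variable exons and the 2 repeated elements are marked. KAP1 peaks crowd on the elements of the alpha and beta arrays, and the gamma array has 1 KAP1 peak in JB1 and 5 in BJ1.

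With the elements counted, KAP1 peaks were densest in the alpha array and sparsest in the gamma array in each line. In JB1 the density was 4.66 peaks per 100 kb in the alpha array, 2.73 in the beta array and 0.597 in the gamma array, beside 1.51 over the genome. In BJ1 it was 5.44, 3.90 and 2.98 peaks per 100 kb in the same order, beside 2.84 over the genome. Peaks on the 2 elements made up 11 of the 20 JB1 peaks and 10 of the 30 BJ1 peaks. Without them the 3 arrays held 1.35 KAP1 peaks per 100 kb in JB1 and 2.85 in BJ1, both close to the densities over the genome without the other copies of the elements (1.32 and 2.65). The order of the arrays by peaks per length then changed in BJ1. In JB1 the alpha array had 2.40 peaks per 100 kb off its element, the beta array 0.803 and the gamma array, which has no element, 0.597. In BJ1 the values were 3.20, 2.41 and 2.98, so the beta array had the fewest peaks per length, on counts of 8, 6 and 5 peaks. By covered length the order differed again, with 1.74% of the alpha, 1.44% of the beta and 2.10% of the gamma array under BJ1 peaks that touched no element. KAP1 peaks covered 2.80% of the 3 arrays in JB1 and 3.66% in BJ1, against 1.39% and 2.25% of the genome. With the bases of the elements left out of the arrays, and those of the elements and their copies out of the genome, KAP1 covered 0.953% of the arrays in JB1 against 1.14% of the genome, and 1.84% in BJ1 against 2.00%. ZFP57 peaks of JB1 covered 0.220% of the arrays, against 0.268% of the genome and 0.187% of chromosome 18. Without the elements they covered 0.112% of the arrays, against 0.235% of the genome without the elements and their copies.

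**Figure D2:**
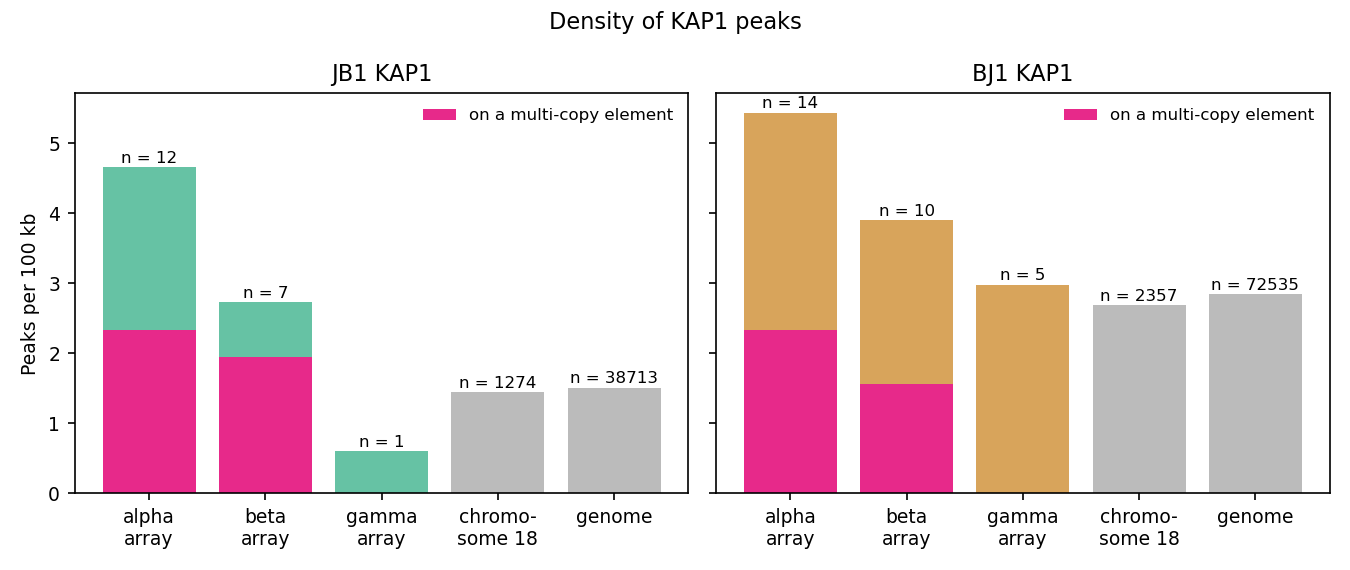
KAP1 peaks per 100 kb (bars from 0) in each array, on chromosome 18 and over the genome, for JB1 and BJ1. Each bar is 1 library, and the part of an array bar on an element has its own colour. The alpha bars are the tallest in both lines, at 4.66 and 5.44 peaks per 100 kb.

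The element in the alpha array lay at chr18:37141184-37148305 (7122 bp) and that in the beta array at chr18:37523749-37530967 (7219 bp), between *Pcdhb8* and *Pcdhb9*. Each began and ended with a direct repeat, the structure of a provirus with long terminal repeats. The repeats were 338 bp long and 100% identical in the alpha element, and 357 bp long and 99.72% identical in the beta element. A further 6 bp direct repeat flanked each element. Their longest open reading frames were 2685 bp on the minus strand in the alpha element and 2682 bp on the plus strand in the beta element. The beta element therefore reads in the direction of the protocadherin genes and the alpha element against it. The elements aligned to each other in opposite orientation, with 96.5% identity over 5989 bp.

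Each element was covered by a run of KAP1 peaks in both lines. On the alpha element and its left flank, 7 JB1 peaks formed a run of 9600 bp and 7 BJ1 peaks a run of 9450 bp, when peaks at most 1.5 kb apart were joined. These were the 104th longest of 27630 runs in JB1 and the 117th longest of 58008 in BJ1. On the beta element, 5 JB1 peaks formed a run of 7650 bp and 4 BJ1 peaks a run of 7500 bp, the 404th and the 480th longest of their lists. KAP1 peaks covered 85.3% of the alpha element in JB1 and 81.0% in BJ1. They covered 91.7% of the beta element in JB1 and 95.8% in BJ1. All 11 JB1 peaks and all 10 BJ1 peaks on the elements overlapped a peak of the other line.

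In reading direction, the first gap between KAP1 peaks began at a like distance from the 5′ end in both elements. In the alpha element it ran from 2605 to 2905 bp in JB1 and from 2605 to 3655 bp in BJ1. In the beta element it ran from 2652 to 2952 bp in both lines. On the beta element KAP1 began 198 bp before the element in both lines and ended 233 bp past it in JB1 and 83 bp past it in BJ1. The 2 elements also held 2 of the 4 ZFP57 peaks of JB1. These lay 205 to 505 bp from the 5′ end of the alpha element and 1002 to 1452 bp from that of the beta element. Both were under KAP1 peaks of each line.

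**Figure D3:**
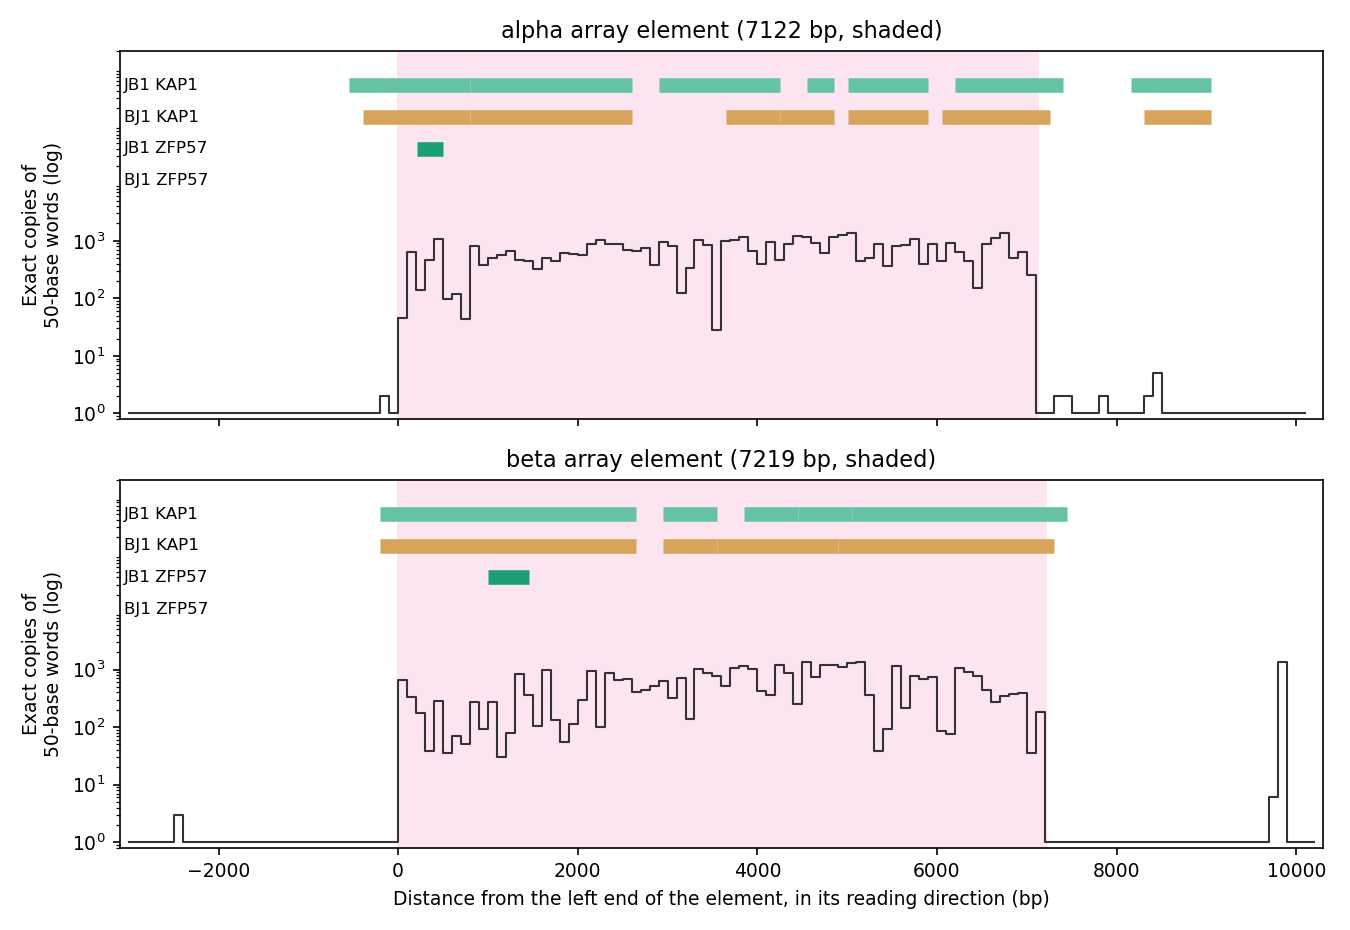
Peaks of the lists along the alpha and beta elements, by distance from the left (5′) end of each element in its reading direction (bp). KAP1 covers most of each element in both lines, with a gap that starts at 2605 bp in the alpha element and 2652 bp in the beta element.

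The alpha element stood inside a sequence that resembles a protocadherin variable exon. The 1482 bp to its left (37139702-37141183) aligned to residues 20 to 513 of the variable exon of *Pcdha11* at 37179818, with 74.5% identity over 494 residues. The 930 bp to its right (37148306-37149235) aligned to residues 512 to 822 of the same exon, with 79.1% identity over 316 residues. With the element removed, the open frame across the junction was 1338 bp, of which 393 bp lay to the left, so the left portion was broken by a stop codon. A KAP1 peak covered the start of this exon remnant in both lines, at 37139251-37140150 in JB1 and 37139251-37140000 in BJ1. The flanks of the beta element matched no variable exon.

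The same kind of element had 1232 other copies in the mm9 genome, 30 of them on chromosome 18, and nearly all had a KAP1 peak. A JB1 KAP1 peak lay on 99.6% of them and a BJ1 KAP1 peak on 99.9%. A JB1 ZFP57 peak lay on 76.8% of them, and a BJ1 ZFP57 peak on 5.11%. With the 2 protocadherin elements, the copies held 17.5% of all JB1 ZFP57 peaks and 13.3% of all JB1 KAP1 peaks, but 5.24% and 6.88% of the BJ1 peaks. Both protocadherin elements had KAP1 peaks in both lines, a ZFP57 peak in JB1 and no ZFP57 peak in BJ1. How reads that match several copies were placed is not known, so the shares of copies with a peak do not show which copies were bound. Along the 877 copies of full length, the share under a KAP1 peak was lowest 2700 to 2850 bp from the 5′ end, at 18.5% in JB1 and 4.22% in BJ1. The gaps in the protocadherin elements span this interval. ZFP57 of JB1 was most frequent 300 to 450 bp from the 5′ end, at 57.0% of the full-length copies, and the peak of the alpha element lies there. At 1200 to 1350 bp, within the peak of the beta element, 22.9% of the copies had a JB1 ZFP57 peak.

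**Figure D4:**
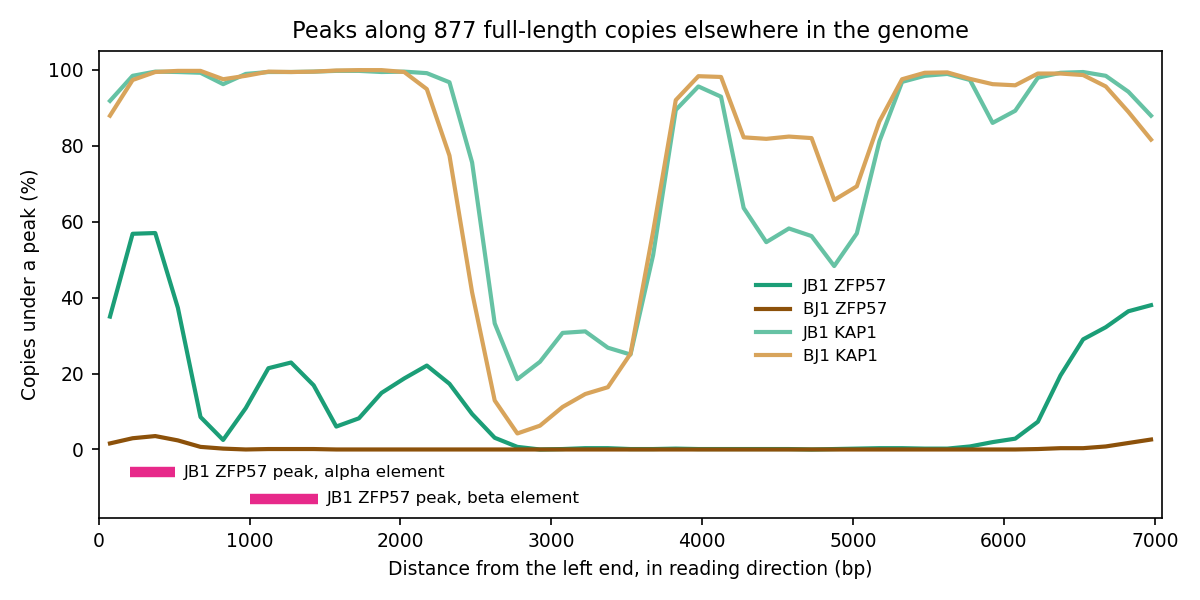
Share of 877 full-length copies elsewhere in the genome under a peak of each list (%), by distance from the left (5′) end (bp), with bars below for the JB1 ZFP57 peaks of the alpha and beta elements. KAP1 is lowest at 2700 to 2850 bp in both lines and ZFP57 of JB1 highest at 300 to 450 bp, at 57.0%.

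The libraries were sequenced as 50-base reads, and most 50-base words of the elements occur many times in the genome. In the alpha element 97.7% of the words were repeated, with a median of 682 copies, and in the beta element 97.2%, with a median of 449. How reads with several matches were placed is not given in the sources used here. Inside the elements, KAP1 or ZFP57 on these particular copies therefore cannot be told apart from reads of other copies, and whether the JF1 chromosomes carry the elements was not tested. The 1 kb flanks were less repeated, with 29.1% and 10.6% of words on the 2 sides of the alpha element and 0% on both sides of the beta element. KAP1 peaks reached into this less repeated sequence. They extended 545 bp in JB1 and 395 bp in BJ1 beyond the 5′ end of the alpha element, where no word 200 to 600 bp from the element was repeated, but 51% and 50% of the words in the nearest 200 bp were. At the 3′ end they extended 283 bp in JB1 and 133 bp in BJ1, over 100 bp steps with 3% to 66% of repeated words. The flanking stretches under KAP1 beside the beta element, given above, held next to no repeated words. The lists hold no reads and lie on a 150 bp grid, so whether reads within these flanks gave these stretches is not known.

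At the gene starts, few members had a peak. No member had a ZFP57 peak within 1 kb of its start, in a background of 0.858% of all genes in JB1 and 0.169% in BJ1. A KAP1 peak lay at the start of 1 of the 25 members in JB1, where 3.69% of all genes had one. In BJ1 it lay at 2 of the 25, where 11% of all genes had one. The member with KAP1 in both lines was *Pcdhb7*, in a background of 3.23% of genes. The second BJ1 member was *Pcdhgc5*, whose record starts at the third of the 22 gamma variable exons. With so few members, 1 or 2 peaks are not far from these backgrounds.

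The peak of *Pcdhb7* had the same limits in both lines, 37501051-37501650, and its centre was 60 bp past the start of the exon's open frame. It was 600 bp wide with a GC content of 37.2%, and none of the 50-base words sampled in it was repeated. It was the single KAP1 peak that both lines shared on any variable exon. The other peaks at exon starts were in BJ1 alone. They lay at the start of *Pcdhgc5* (37833601-37834500), at the *Pcdha11* exon start under 37249351-37249950, and at gamma exons starting at 37854119 and 37906575 that GENCODE M1 does not annotate. The 3 gamma peaks were 750 to 900 bp wide, and each held 1 TGCCGC hexamer and 33 to 42 CpG dinucleotides. Counted over the 58 exons, KAP1 was at 1 start in JB1 and at 5 in BJ1, of which 1 was an alpha, 1 a beta and 3 were gamma exons. Beside 3.69% of all gene starts with KAP1 in JB1 and 11% in BJ1, these counts are near the background.

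A different position was seen in the beta array. In BJ1, KAP1 peaks lay over the downstream portion of the exons of *Pcdhb7* (37503301-37503900), *Pcdhb8* (37516801-37517100) and *Pcdhb14* (37609351-37609950), and JB1 had none there. With these, BJ1 peaks overlapped 7 of the 58 exons and JB1 peaks 1. Of 2053 annotated exons of like length (2316 to 2763 bp) over all genes, 7.55% had a KAP1 peak in BJ1 and 2.63% in JB1, so neither count is far from its background. BJ1 had 1 further peak, at 38000101-38000850, in the last constant exon of the gamma array, which gamma transcripts share.

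The remaining KAP1 peaks lay in introns or between genes. Those found in both lines were in the alpha array at 37197301-37198200 in JB1 and 37197151-37198200 in BJ1, and at 37234201-37234650 in JB1 and 37234351-37234800 in BJ1. The gamma array had a shared intron peak at 37931701-37932150 in JB1 and 37931551-37932150 in BJ1, its only KAP1 peak in JB1. Peaks of JB1 that BJ1 lacked were 3 in alpha introns and 1 between beta genes at 37565101-37565550. One of the former, 37195951-37196550, consisted wholly of repeated words. Another, 37233901-37234200, directly adjoined the shared JB1 peak at 37234201-37234650 and was counted apart from it. Peaks of BJ1 that JB1 lacked were 4 in alpha introns, 2 between beta genes and 1 in the flank of the alpha array at 37074901-37075500.

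Off the elements, the lines shared fewer peaks over the arrays than on them. Of the 20 JB1 KAP1 peaks, 16 (80%) overlapped a BJ1 peak, against 85.9% of the whole JB1 list. Of the 30 BJ1 KAP1 peaks, 15 (50%) overlapped a JB1 peak, against 45.3% of the whole BJ1 list. Off the elements these were 5 of 9 (55.6%) in JB1 and 5 of 20 (25%) in BJ1. The whole lists include peaks on the other copies of the elements. Their shares without those peaks were not computed, so these small counts have no matched background. With the elements counted, the number of BJ1 peaks per JB1 peak was 1.17 in the alpha array, 1.43 in the beta array and 5 in the gamma array, against 1.87 over the genome. Off the elements it was 1.33 in the alpha array (8 against 6 peaks), 3 in the beta array (6 against 2) and 2.11 over the 3 arrays. The gamma value rests on 5 peaks against 1.

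The variable exons were rich in CpG and in the ZFP57 hexamer, and no ZFP57 peak of either line overlapped any of the 58. Of the 2053 annotated exons of like length, 0.633% had a ZFP57 peak in JB1 and 0.244% in BJ1, so a count of 0 is near the background. TGCCGC, counted on both strands, occurred 61 times in them and in 44 of the 58, a rate of 0.422 per kb against 0.0641 per kb of the genome. It was most frequent in the gamma exons (0.537 per kb, 20 of 22 exons), followed by the alpha exons (0.457 per kb, 12 of 14) and the beta exons (0.280 per kb, 12 of 22). CpG density followed another order, with 45.6 per kb in alpha, 38.4 in gamma and 27.6 in beta exons, against 8.34 in the genome. A match of the hexamer is not a bound site, and methylation was not measured in these lists. Few words of the exons were repeated exactly, with medians of 14.8% in alpha, 7.01% in beta and 0.763% in gamma exons. The highest value was 26.1%. These counts cover exact matches alone, whereas the alignment allowed mismatches. How much of each exon was open to unique reads was therefore not tested.

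The ZFP57 peaks off the elements were both in JB1. The first, at 37437601-37438050 between *Pcdhb1* and *Pcdhb2*, had 73.3% of repeated words, and the second, at 37863751-37864050 in a gamma intron, had 0%. Neither overlapped a KAP1 peak of JB1 or held TGCCGC. Of the 4 ZFP57 peaks over the arrays, 1 held TGCCGC, that on the alpha element, against 47.7% of the whole JB1 list. The BJ1 list shared none of the 4, where 5.40% of all JB1 ZFP57 peaks overlapped a BJ1 peak. Among KAP1 peaks, 6 of 20 in JB1 and 10 of 30 in BJ1 held TGCCGC, against 31.7% and 20% of the whole lists.

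Related genes elsewhere were counted by the same rule, beside 3.69% of all genes with KAP1 at the start in JB1 and 11% in BJ1. Of 15 records of non-clustered protocadherins, which lie outside the arrays as separate genes, none had KAP1 at the start in JB1 and 1 had in BJ1 (*Pcdh17*). Of 17 genes for proteins that act on the clusters, on DNA methylation or with KAP1, none had KAP1 at the start in JB1 and 5 had in BJ1. These were the DNA methyltransferase genes *Dnmt1* and *Dnmt3a*, the cohesin loader *Nipbl*, the cohesin release factor *Wapal* and *Zfp57*. No gene of these groups had a ZFP57 peak at the start. Among other tandem families, KAP1 was at the start of 0.719% of 1251 olfactory receptor records in JB1 and 1.68% in BJ1. For the vomeronasal receptor genes (*Vmn1r* and *Vmn2r*) the shares were 0.610% and 1.22% of 328 records, and for 40 *Hox* genes 0% and 2.5%. KAP1 was at the start of 4.02% of 348 numbered zinc finger (*Zfp*) genes in JB1 and 17.2% in BJ1. The 9 neighbouring genes of the arrays, among them *Slc25a2*, *Taf7* and *Diap1*, had no peak at the start in any of the 4 lists.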

How the data were processed

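The authors sequenced 50-base single-end ChIP-seq libraries, aligned them to mm9 with Bowtie (0.12.7, up to 2 mismatches) and called peaks with MACS at p 1e-05. CASAVA 1.8.2, SAMtools 0.1.18 and bedtools 2.14.3-1 are also listed in the submitters' processing notes. The deposited peak lists were called per library and hold chromosome, start and end, with no score, signal or count. The 2 inputs were not used here. The members and lists were chosen with earlier results of these data known.

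Intervals were treated as 1-based and closed, and an overlap of 1 bp counted. A gene start was called with a peak within 1 kb. Variable exons were plus-strand open frames of at least 1800 bp aligned over 60% or more to an annotated exon (BLAST 2.17.0, e-value up to 1e-50). Exact 50-base words were counted over mm9. Copies of the elements aligned over at least 5000 bp at 80% identity or more, and those of 6500 to 7700 bp were taken as full length. Joining KAP1 peaks up to 1.5 kb apart, the open-frame exons, the annotated exons of like length (overlapping exons merged) and the counts without the elements were chosen after seeing the data. Member genes were named if they were first or last in an array, of C type, had a ZFP57 peak at the start or over the first exon, had KAP1 at the start in 1 line, or were among the 3 with the widest KAP1 start peaks in their array and line. Other members, such as *Pcdhb8* and *Pcdhb14*, were named after their values were seen. Scripts were tested on simulated data and used Python 3.11.15. No sequence of chromosome 18 is printed. From the list of related genes, 1 gene is not reported here.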

Additional observations from a re-analysis of the deposited data

How the results depend on the processing

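With 1 library per line and antibody, no library could be left out and no test made. No paired analysis was possible because no result comes from a test. Of the alternatives, 23 values moved, by over 1.5 times for counts or beyond the 95% binomial interval over 150 bp windows for shares. The other 65 did not, many of them 0 in both settings, but relative JB1 ZFP57 coverage was 1.18 against chromosome 18. Keeping only peaks wider than the median of each list left 0 ZFP57 peaks in JB1, 9 KAP1 peaks in JB1 (8 shared) and 14 in BJ1 (8 shared), with KAP1 at 0 gene starts in JB1 and 1 in BJ1. Counting the starts of the open-frame exons gave 5 in BJ1, and any overlap with these exons 7. Without the elements, JB1 kept 2 ZFP57 peaks (0 with TGCCGC) and 9 KAP1 peaks (5 shared, 1 with TGCCGC), and BJ1 KAP1 had 5 shared peaks and 5 with TGCCGC. Coverage relative to the genome was 2.01 in JB1 and 1.63 in BJ1 for KAP1 and 0.821 for JB1 ZFP57. Without the elements and their copies it was 0.836 in JB1 and 0.920 in BJ1 for KAP1, and 0.478 for JB1 ZFP57. Outside the elements, KAP1 covered 0.953% of the arrays in JB1 and 1.84% in BJ1. Of the annotated exons of members, KAP1 covered 0.217% in JB1 and 2.36% in BJ1, and JB1 ZFP57 covered 0%. Peak heights and depth are unknown, which limits every absence stated.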
